A study of Homo sapiens with 48 samples.

Results

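The first hours of protein kinase C inhibition were examined in 92-1 cells, an established human uveal melanoma line. The samples were the 3 libraries labelled as 92-1 with IDE196 for 4 h (replicates 1 to 3) and the 3 labelled as 92-1 with DMSO for 4 h, negative control for IDE196 (replicates 4 to 6). They are 6 of the 48 samples of the series and were taken by their labels of line, compound and time. The series sequenced RNA of 3 uveal melanoma lines, 92-1, MEL202 and MP41, mostly to follow FHT-1015, an inhibitor of the ATPases of BAF chromatin remodelling complexes. IDE196 was given to 92-1 only, for 4 or 24 h, each time beside DMSO samples of its own. All 6 libraries have the genotype label WT and the cell type label uveal melanoma, the DMSO given to the controls is the solvent, and the dose of IDE196 is not given in the sources used here. The labels call the replicates biological. What separates them (culture, passage or day) is not given in the sources used here, so the p-values measure the spread between these samples.

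IDE196, also known as darovasertib, is an inhibitor of protein kinase C. Most uveal melanomas carry an activating mutation in GNAQ or GNA11, the alpha subunits of Gq proteins, which keep phospholipase C beta switched on. The diacylglycerol it makes recruits protein kinase C and RASGRP3, an activator of RAS, and both feed the RAF, MEK and ERK kinase cascade. ERK in turn drives the transcription of immediate-early genes, which need no new protein to be made, and of phosphatases and Sprouty proteins that damp the cascade.

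Between 19528501 and 25466193 reads were counted in genes per library, from 19528501 to 24311352 with IDE196 and from 22441557 to 25466193 with DMSO. Mitochondrial transcripts held 4.89% to 6.74% of the reads with IDE196 and 3.92% to 6.31% with DMSO. The 7 reference genes of melanocytes summed to 15791 to 16772 CPM, read counts scaled to a common library total, with IDE196 and 15060 to 16746 with DMSO, and 1 of them, MITF, was called. Of the markers of leukocytes, CD3E and CD68 had 0 reads in all 6 libraries, and so had TEK of the endothelial markers. Summed fibroblast markers reached 9.87 to 38.3 CPM with DMSO and 18.8 to 28.9 with IDE196, and epithelial markers 7.71 to 15.6 and 2.98 to 8.49. Leukocyte markers summed to at most 1.56 CPM and endothelial markers to at most 1.01, too low to test, and no fibroblast or epithelial marker tested was called. CPM here rest on library totals after TMM scaling, and since they are not divided by gene length they are compared only within a gene.

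After 4 h, 1063 of 15437 genes tested were higher with IDE196 (6.89%) and 1435 were lower (9.3%), at a Benjamini-Hochberg adjusted p under 0.05 in edgeR's quasi-likelihood test. In both directions together 16.2% were called, and at an unadjusted p under 0.05 there were 4309. Most changes were modest: the median log2 fold change of the genes called higher was 0.56, that of the genes called lower was -0.54, and that of all genes tested was 0.01. At least 2-fold changes were called for 234 genes upward (1.52%) and 227 downward (1.47%). The test was fitted on the 12 samples of 92-1 with IDE196 or its DMSO at both times. In a fit of all 48 samples, where the other lines and FHT-1015 contribute to the estimated spread, 348 genes were higher and 547 lower. A call named below that was lost in that fit is given as such.

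Among genes that averaged 5 CPM or more over the 6 libraries, the deepest falls included regulators of G protein signalling and immediate-early genes of the ERK pathway. RGS16 (ENSG00000143333.7, chromosome 1, 182598623 to 182604408, GRCh38), whose product speeds up the GTPase of G protein alpha subunits and so switches them off, had 16.1, 14 and 19.8 CPM in the DMSO replicates and 0.613, 0.854 and 0.959 with IDE196. That is a log2 fold change of -4.38 (SE 0.23, n = 3 per group, edgeR adjusted p 1.01e-09). RGS2, which acts on Gq itself, went from 19.9, 25.4 and 36.5 CPM to 3.8, 3.11 and 5.22 (-2.76, SE 0.25, edgeR adjusted p 8.73e-07). In both genes the groups were far apart and did not overlap. EGR1 (ENSG00000120738.8, chromosome 5, 138465490 to 138469315), the zinc finger factor that is the classical immediate-early read-out of ERK, had 13.9, 17.9 and 9.86 CPM with DMSO. It had 0.368, 1.56 and 0.746 CPM with IDE196, a change of -4.0 (SE 0.33, edgeR adjusted p 3.01e-07). NR4A3 (ENSG00000119508.18, chromosome 9, 99821855 to 99866891), an orphan nuclear receptor induced within minutes by many stimuli, fell from 266, 212 and 268 CPM to 17.8, 15.2 and 18.5. Its 6 values lay close together within each group and gave -3.86 (SE 0.12). Its relative NR4A1 fell from 137, 171 and 157 CPM to 22.9, 23.9 and 27.6 (-2.65, SE 0.11).

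SPRY4, a Sprouty protein that restrains signalling from receptors to ERK, fell from 161, 124 and 138 CPM to 17, 17.6 and 16.2 (-3.05, SE 0.11, edgeR adjusted p 1.18e-11). DUSP2, a nuclear phosphatase of mitogen-activated kinases, fell from 14.2, 17.1 and 15.3 CPM to 2.41, 2.86 and 4.9 (-2.22). The remaining members of the 12 largest falls above that level were the transcription factors NR5A2 (-3.12) and OLIG2 (-3.06), the anion channel subunit LRRC8C (-2.27), the kinase HUNK (-2.2) and the pleckstrin homology protein PHLDA2 (-2.14). OLIG2, known from oligodendrocyte precursors, had 21.5, 21.4 and 20.4 CPM with DMSO and 2.94, 2.11 and 2.5 with IDE196. NR5A2 had the largest SE of the 12 falls, with 6.26, 10.1 and 19.6 CPM against 0.572, 1.56 and 2.13 (SE 0.44, edgeR adjusted p 8.74e-05).

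The largest rise above the same level was in EFNA1 (ENSG00000169242.12, chromosome 1, 155127460 to 155134857), which encodes ephrin-A1, a membrane-bound ligand of the receptor EPHA2. Its replicates had 1.15, 2.16 and 1.91 CPM with DMSO and 11.9, 10.2 and 10.2 with IDE196 (2.62, SE 0.19, edgeR adjusted p 7.32e-08). FBXO32, a ubiquitin ligase subunit known as a target of FOXO factors in wasting muscle, rose from 16.9, 12.5 and 16.3 CPM to 66.6, 61 and 77.5 (2.17, SE 0.17). YPEL2 (ENSG00000175155.9, chromosome 17, 59331689 to 59401729), of the small Yippee family, rose from 7.71, 5.19 and 6.13 CPM to 29.7, 22.8 and 24.1 (2.02, SE 0.18). The lowest treated replicate of each of these 3 genes lay well above the highest DMSO replicate. PPARGC1A (ENSG00000109819.9, chromosome 4, 23755041 to 23904089), the coactivator that drives mitochondrial biogenesis and is known in melanoma as a target of MITF, rose from 3.61, 1.84 and 2.98 CPM to 7.32, 10.2 and 11.3 (1.78, SE 0.23). FST, the secreted antagonist of activins, rose from 10.2, 11.6 and 11.5 CPM to 30.2, 33.3 and 41 (1.65, SE 0.14). The kinase PIM1 rose from 7.71, 11.6 and 5.78 CPM to 30.5, 25.9 and 27.9 (1.74, SE 0.19).

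The remaining 12 largest rises included STARD13 (1.71). STON1 and DNAJC6, an adaptor and a cochaperone of clathrin-dependent endocytosis, rose by 1.75 and 1.66. MED12L, a subunit of the Mediator kinase module, and ARFGEF3 rose by 1.69 and 1.67. STON1 and MED12L overlap other annotated genes. Reads that fall in more than 1 gene were set apart as ambiguous, 10.3% to 11.3% of all reads per library. The unstranded counts do not tell the strand of the remaining reads. The members of both sets were ranked by their size among called protein-coding genes that averaged 5 CPM or more and whose groups do not overlap. Genes of lower level described below, among them EGR4, EGR3, PIK3IP1 and DDIT4, changed as much as some of them or more. Of all genes tested, 14.8% had every treated replicate above every DMSO replicate and 15.4% had every one below. The calls of the 23 genes named here held in every alternative fit and in each of the 12 fits that left out 1 library.

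**Figure D1:**
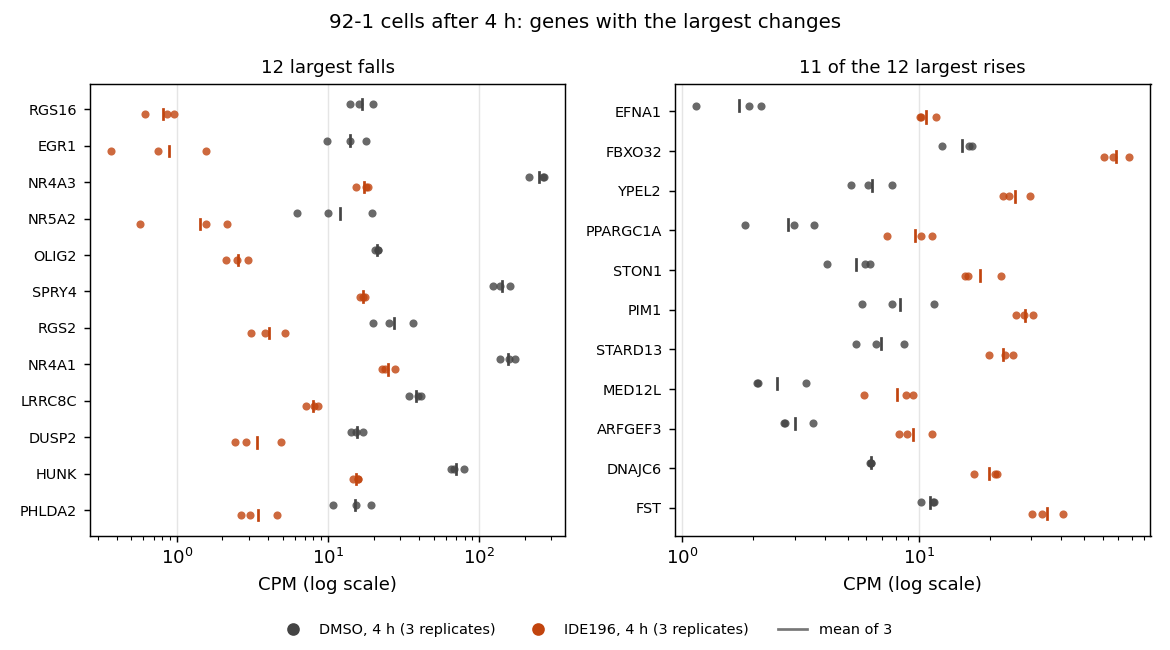
Normalised CPM (log axis) of the 12 genes with the largest falls and of 11 of the 12 with the largest rises after 4 h of IDE196 in 92-1, among genes that averaged 5 CPM or more. Each dot is 1 library, grey for DMSO and orange for IDE196, with 3 of each, and the vertical tick is their mean. No orange dot overlaps the grey dots of its gene, as the rule that chose the genes requires.

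The promoters of the 3 largest falls and of 3 of the 4 largest rises (FBXO32 is not shown) are printed from RefSeq's table (GRCh38.p14) because these genes had the largest changes above an average of 5 CPM. Each run gives the 250 bases before the annotated start, 5′ to 3′ on the gene's strand. Capitals mark matches, on either strand, to 5 motifs searched in the whole 300-base windows of the table, which go on to 50 bases after the start. The motifs were TGACGTC, the core of the cyclic AMP response element, TGAGTCA or TGACTCA for AP-1, the CArG box of serum response factor, GTAAACA for forkhead factors and CACGTG, the E-box. None of these letters overlaps another motif's in the windows shown. The first 3 fell, with chr1:182604390-182604639, minus strand for RGS16, chr5:138465229-138465478, plus strand for EGR1 and chr9:99821635-99821884, plus strand for NR4A3. The other 3 rose, with chr1:155127626-155127875, plus strand for EFNA1, chr17:59331405-59331654, plus strand for YPEL2, and 2 starts of PPARGC1A, the first of them upstream of the GENCODE gene, chr4:24472906-24473155, minus strand and chr4:23881102-23881351, minus strand.
RGS16: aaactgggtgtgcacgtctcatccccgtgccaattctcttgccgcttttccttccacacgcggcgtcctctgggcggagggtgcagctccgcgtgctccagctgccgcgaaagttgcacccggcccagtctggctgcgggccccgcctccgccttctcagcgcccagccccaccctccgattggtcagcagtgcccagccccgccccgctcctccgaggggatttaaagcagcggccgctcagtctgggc
EGR1: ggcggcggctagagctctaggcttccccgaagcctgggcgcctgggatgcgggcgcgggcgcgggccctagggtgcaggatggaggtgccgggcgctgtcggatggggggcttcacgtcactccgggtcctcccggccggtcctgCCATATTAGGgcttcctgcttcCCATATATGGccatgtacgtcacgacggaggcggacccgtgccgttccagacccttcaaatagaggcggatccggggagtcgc
NR4A3: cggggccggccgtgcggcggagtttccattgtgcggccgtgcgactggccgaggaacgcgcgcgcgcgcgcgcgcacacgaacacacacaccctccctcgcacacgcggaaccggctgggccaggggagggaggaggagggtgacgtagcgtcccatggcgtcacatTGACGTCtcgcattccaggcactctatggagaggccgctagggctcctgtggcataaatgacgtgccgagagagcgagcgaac
EFNA1: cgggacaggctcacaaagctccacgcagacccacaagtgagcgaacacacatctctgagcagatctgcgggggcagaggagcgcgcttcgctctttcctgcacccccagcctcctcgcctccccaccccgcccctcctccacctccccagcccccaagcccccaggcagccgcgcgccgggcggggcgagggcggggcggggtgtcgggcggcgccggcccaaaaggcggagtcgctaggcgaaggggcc
YPEL2: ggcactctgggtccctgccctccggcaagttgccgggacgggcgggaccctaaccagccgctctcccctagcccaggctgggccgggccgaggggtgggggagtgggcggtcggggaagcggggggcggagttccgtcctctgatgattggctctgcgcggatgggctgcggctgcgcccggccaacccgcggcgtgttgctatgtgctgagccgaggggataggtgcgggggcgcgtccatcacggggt
PPARGC1A, upstream start: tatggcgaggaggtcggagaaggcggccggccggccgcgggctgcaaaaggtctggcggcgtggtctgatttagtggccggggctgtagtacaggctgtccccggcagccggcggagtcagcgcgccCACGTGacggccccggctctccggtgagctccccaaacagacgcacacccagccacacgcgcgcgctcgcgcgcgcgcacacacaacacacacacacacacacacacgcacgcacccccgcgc
PPARGC1A, downstream start: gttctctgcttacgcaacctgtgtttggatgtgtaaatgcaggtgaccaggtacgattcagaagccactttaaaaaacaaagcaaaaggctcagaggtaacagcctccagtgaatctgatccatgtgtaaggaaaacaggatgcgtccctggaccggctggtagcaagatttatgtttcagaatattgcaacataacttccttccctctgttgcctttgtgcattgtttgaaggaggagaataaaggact

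EGR1 held 2 CArG boxes, 105 to 96 and 83 to 74 bases before the start, the element through which serum response factor and its ERK-dependent partners are known to act. NR4A3 held 1 cyclic AMP response element core, 83 to 77 bases before the start, and the upstream start of PPARGC1A held 1 E-box, 123 to 118 bases before it. The other 4 windows held none of the 5 motifs. The table matched 10932 of the 15437 genes tested, with 15972 windows, 815 of the 1063 higher genes, with 1342 windows, and 1142 of the 1435 lower genes, with 1633 windows. The E-box was in 12.9% of the windows of lower genes, in 7.97% of those of higher genes and in 9.35% of all tested. For the cyclic AMP response element core the shares were 6.98%, 4.1% and 4.93% in the same order, and for AP-1 2.51%, 4.47% and 3.41%. Forkhead matches were in 2.69%, 3.73% and 2.58%, and CArG boxes in 1.16%, 1.19% and 1.14%. The shares in all 35116 windows of the table were 7.26% for the E-box, 3.45%, 4.95%, 3.42% and 1.29% for the others in that order. A match is a string of letters and shows no binding.

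The gene lists from here on were chosen with earlier results of these data known, so their counts describe these data and test nothing. More immediate-early genes fell than rose. Of 31 tested (EGR2 did not pass the filter on low counts), 19 fell and 6 rose, with a median log2 fold change of -0.83. For comparison, 9.3% of all genes tested fell and 6.89% rose, with a median of 0.01. In the fits of 6 and of 48 samples, and without IDE196 replicate 2 or 3 of 4 h, 15 of the list fell. Besides EGR1, NR4A1 and NR4A3, the falls included FOS, a subunit of the AP-1 factor, which went from 9.87, 14.1 and 11.3 CPM to 3.64, 2.31 and 3.3 (-1.92, SE 0.19, edgeR adjusted p 2.14e-06). Other AP-1 members named after their values were seen were FOSL1 (-1.87), JUNB (-1.41) and FOSB (-1.25). EGR3, another zinc finger factor of the EGR family, had 1.54, 2.52 and 2.8 CPM against 0, 0.151 and 0.16. Its 3 DMSO libraries had 161 reads together and its 3 IDE196 libraries 6, a ratio of 24.1 after scaling for library size, with an exact 95% interval of 10.8 to 66.7 covering counting error only. EGR4 had 26 reads with DMSO in all, between 2 and 17 per library, and 0 in each IDE196 library. Its call (edgeR adjusted p 0.0268) was lost without DMSO replicate 6 and without each of the 3 IDE196 libraries of 4 h.

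6 immediate-early genes went the other way. JUN, the partner of FOS, rose from 35.2, 35.2 and 34.4 CPM to 112, 59.1 and 119 (1.47, SE 0.17, edgeR adjusted p 1.54e-05), with replicate 2 of IDE196 lower than the other 2 but above every DMSO value. BTG2, an antiproliferative gene induced by p53, rose from 13.8, 11.4 and 15.5 CPM to 30.0, 25.6 and 37.6 (1.2, SE 0.18). ATF3, a stress-induced factor of the ATF family, rose by 1.09 (SE 0.19) and the Krüppel-like factor KLF5 by 0.85 (SE 0.14). The other 2, named after their values were seen, were KLF6 (0.54) and JUND (0.54), whose call was lost in the fits of 24 and of 48 samples. FOS and JUN thus changed in opposite directions in the same libraries.

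Of the feedback inhibitors of ERK, 12 of 19 tested fell and 2 rose, with a median of -0.81, against 9.3% and 6.89% of all genes. Besides SPRY4, the Sprouty gene SPRY2 fell from 35.9, 40.4 and 40.5 CPM to 9.48, 10.3 and 10.5 (-1.95, SE 0.15, edgeR adjusted p 1.46e-07) and SPRY1 from 4.36, 5.03 and 6.31 to 1.39, 0.502 and 1.6 (-2.16, SE 0.35). The phosphatase DUSP6, which acts on ERK in the cytoplasm and was named after its value was seen, fell from 20.3, 19.6 and 20.3 CPM to 5.68, 6.28 and 7.08 (-1.66, SE 0.14). DUSP4 (-1.55), DUSP5 (-1.39) and DUSP1 (-0.81), named in the same way, fell too. The 2 that rose, DUSP16 and DUSP10, encode phosphatases known to act mainly on the stress kinases JNK and p38. DUSP16 rose from 88.3, 67.7 and 67.9 CPM to 209, 151 and 178 (1.27, SE 0.13, edgeR adjusted p 2.45e-06). DUSP10 rose from 1.37, 1.52 and 0.978 CPM to 3.11, 1.91 and 3.89 (1.2, SE 0.30, edgeR adjusted p 0.0106), a call lost without DMSO replicate 6 or IDE196 replicate 3.

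**Figure D2:**
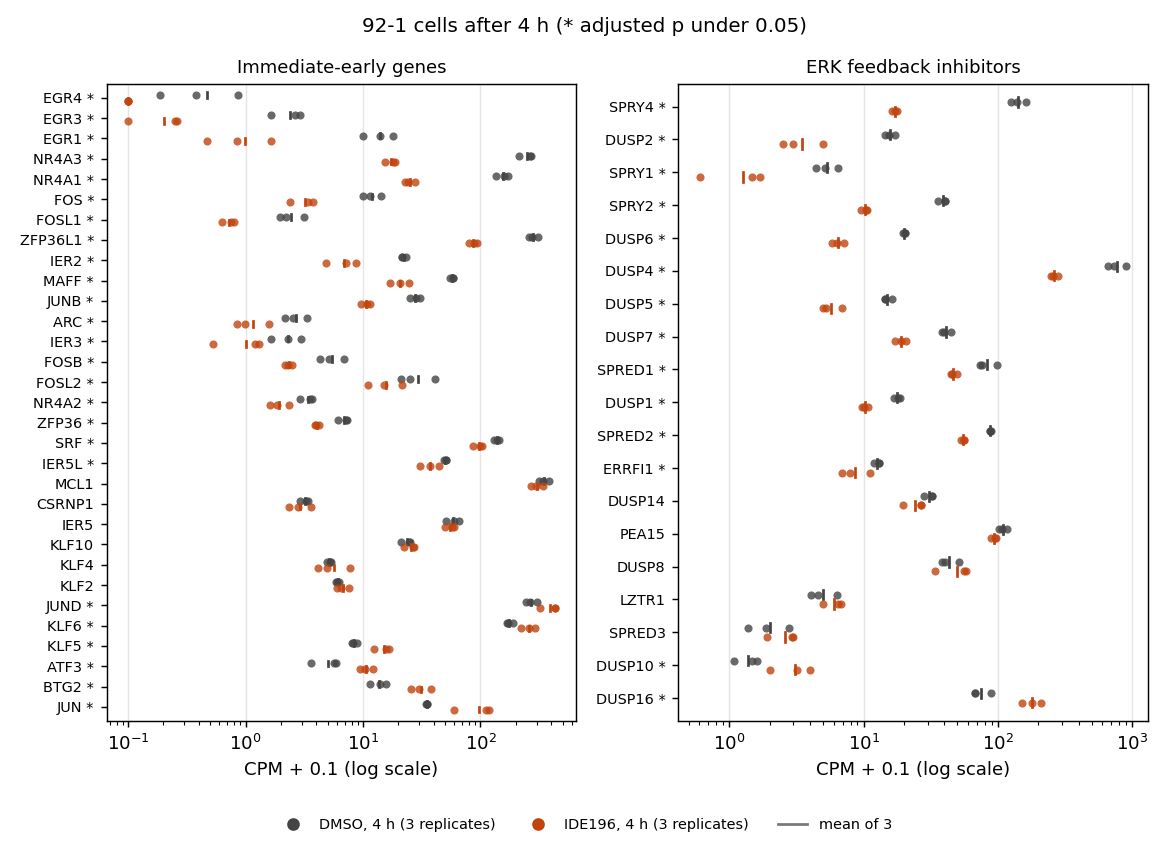
CPM plus 0.1 (log axis) of the 31 immediate-early genes and 19 ERK feedback inhibitors tested, ordered by log2 fold change from the largest fall at the top. Each dot is 1 library (3 DMSO in grey, 3 IDE196 in orange), the tick is the mean, and an asterisk marks an adjusted p under 0.05. Falls fill the upper parts of both panels, with JUN and DUSP16 at the bottom as the largest rises.

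Other genes driven by the ERK pathway were split. 11 of 22 tested fell and 3 rose, with a median of -0.40, against 9.3% and 6.89% of all genes, and 6 of the 28 listed, among them AREG, EREG and IL11, were too low to test. CCND1, cyclin D1, which carries growth signals into the cell cycle, fell from 635, 434 and 509 CPM to 144, 139 and 142 (-1.89, SE 0.12, edgeR adjusted p 1.11e-08). ELK3, a partner of serum response factor, fell (-1.33, SE 0.11), and EPHA2 fell from 70.4, 76.7 and 84 CPM to 31.1, 26.5 and 39.4 (-1.25, SE 0.12). EPHA2 is the receptor of ephrin-A1, so this receptor and this ligand changed in opposite directions. MYC (-0.98, edgeR adjusted p 0.000428) and ETV5 (-1.01), named after their values were seen, fell, while ETV4, of the same ETS subfamily, had -0.18 (edgeR adjusted p 0.237). The rises included HBEGF and TGFA. HBEGF, a ligand of the EGF receptor, rose from 4.8, 5.79 and 4.35 CPM to 17.2, 9.49 and 11.7 (1.36, SE 0.19). TGFA, another such ligand, was under 1.1 CPM in every library, and its call (edgeR adjusted p 0.0483) was lost in the fits of 6, 24 and 48 samples, with scaling by library size alone, with no filter on low counts and in all 12 fits that left out a library.

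Transcripts of protein kinase C, the target, were tested for 11 isoform and protein kinase D genes. Of these 2 rose and none fell, with a median of 0.11, where 6.89% of all genes tested rose and 9.3% fell. PRKCZ had 13, 14.6 and 11.5 CPM with DMSO and 15.7, 16.4 and 19.7 with IDE196 (0.40, SE 0.12, edgeR adjusted p 0.0322), and PRKCH had 0.33 (SE 0.11, edgeR adjusted p 0.0436). Both calls were lost in the fits of 6 and of 48 samples, that of PRKCZ also with both strands summed and without DMSO replicates 4 or 6 or IDE196 replicates 2 or 3 of 4 h, and that of PRKCH with no filter and in 10 of the 12 fits without 1 library. For the isoforms that did not pass, the log2 fold changes were 0.20 for PRKCA, 0.26 for PRKCB, -0.05 for PRKCD, -0.01 for PRKCE, 0.05 for PRKCI and 0.32 for PRKCQ. PRKCD, for example, had 28.3, 38.1 and 35.7 CPM against 31.4, 33.3 and 34, groups that overlap. The 3 protein kinase D genes had 0.07, 0.09 and 0.11.

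Of 29 genes between Gq and ERK, 3 fell and 2 rose, with a median of 0.03, shares near the 9.3% and 6.89% of all genes tested. With limma-voom 5 fell, and in the 48-sample fit 1 rose. The largest fall in the list was in RASGRP3, the RAS activator that diacylglycerol and protein kinase C switch on: 259, 212 and 259.8 CPM with DMSO and 100.4, 93.5 and 98.1 with IDE196. It gave -1.32 (SE 0.09, edgeR adjusted p 2.65e-08), and the groups did not overlap. DGKE, a diacylglycerol kinase that removes this lipid, fell from 11.5, 10.4 and 11.4 CPM to 4.58, 5.67 and 4.1 (-1.21, SE 0.17). MARCKS, a membrane protein that is itself a main substrate of protein kinase C, rose from 275, 306 and 325 CPM to 447, 394 and 473 (0.54, SE 0.10). GNAQ (-0.04, edgeR adjusted p 0.851) and GNA11 (-0.23, edgeR adjusted p 0.063), named after their values were seen, did not pass the test. GNA11 gained the call with DESeq2 and with limma-voom. Of 12 regulators of G protein signalling tested (8 of the 20 listed were too low), 5 fell and 1 rose, with a median of -0.43, where 9.3% and 6.89% of all genes did. Besides RGS16 and RGS2, RGS14 (-1.12) and RGS19 (-0.70) fell, while RGS9 rose from 2.29, 4.55 and 3.82 CPM to 5.89, 7.78 and 7.78 (1.0, SE 0.22).

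More FOXO targets and genes that restrain growth rose than fell. FOXO factors are held in the cytoplasm by growth signalling and, once in the nucleus, switch on genes of growth arrest and catabolism. Of 30 tested, 17 rose and 3 fell, with a median of 0.51, and in the 48-sample fit 11 rose and 1 fell. Of all genes tested 6.89% rose and 9.3% fell, so the share of the list that fell was near that of all genes. PIK3IP1, an inhibitor of phosphoinositide 3-kinase, rose from 1.37, 2.04 and 1.96 CPM to 6.54, 6.18 and 9.21 (2.02, SE 0.21, edgeR adjusted p 2.51e-06). TXNIP, which limits glucose uptake, rose from 4.93, 6.91 and 4.44 CPM to 20.2, 15.5 and 14.9 (1.63, SE 0.21). Both sets of replicates were well separated. Rises named after their values were seen were those of the sestrin SESN3 (1.59), cyclin G2 or CCNG2 (1.46), KLHL24 (1.25), FOXO3 (1.06) and FOXO1 (0.74). The 3 that fell were BCL2L11 (-1.11), IRS1 (-0.71) and CITED2 (-0.49). IRS1 and CITED2 lost the call in the 48-sample fit, and CITED2 also without DMSO replicate 6 or IDE196 replicate 2 of 4 h.

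Cell cycle genes were counted by phase. Of 25 genes of G1, 6 fell and 2 rose, with a median of -0.19, where 9.3% of all genes tested fell and 6.89% rose, and in the 48-sample fit 2 fell and 2 rose. Next to CCND1, the phosphatase CDC25A, which activates CDK2, fell from 78.5, 72.8 and 74 CPM to 37, 35.2 and 34.7 (-1.08, SE 0.08, edgeR adjusted p 1e-07). CDK6 had -0.66, a call lost in the 48-sample fit. The 2 rises, a share near that of all genes, were in genes of inhibitors of cyclin-dependent kinases. CDKN1B, which encodes p27, rose from 63.6, 65.1 and 64.3 CPM to 120.2, 112 and 125 (0.89, SE 0.08, edgeR adjusted p 5.2e-07), and CDKN2C from 19.5, 22 and 17.6 to 35.5, 37.8 and 34.8 (0.87, SE 0.16). Of 28 genes of S phase and mitosis, in contrast, 1 rose and 1 fell at 4 h, with a median of 0.04. The rise was in the mitotic kinesin KIF20A (0.59) and the fall in the replication licensing factor CDC6 (-0.52), the latter lost in the 48-sample fit. With DESeq2 and with limma-voom, 2 rose and 2 fell. The number that rose was also 2 with both strands summed and without DMSO replicate 6 of 24 h or IDE196 replicate 3 of 4 h. The number that fell was also 2 with no filter, in the fits of 6 and 24 samples and without IDE196 replicate 1 or 3 of 24 h. At 24 h, 26 of the 28 fell and none rose, with a median of -1.17, where 29.4% of all genes tested fell and 28.7% rose.

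Most genes of ribosome biogenesis fell. Of 30 tested, 22 fell and none rose, with a median of -0.55, against 9.3% and 6.89% of all genes, and 13 fell in the 48-sample fit. LYAR, a nucleolar factor of ribosomal RNA processing, fell from 36.1, 37.9 and 37.5 CPM to 14.2, 14.6 and 15.9 (-1.32, SE 0.12, edgeR adjusted p 5.56e-07). RRS1, which brings the 5S particle to the large subunit, fell from 50.7, 67.5 and 63.9 CPM to 22.8, 23.7 and 27.7 (-1.3, SE 0.14). POLR1B, the second largest subunit of RNA polymerase I, fell from 65.7, 49.4 and 65.6 CPM to 23.3, 25.2 and 30.6 (-1.19, SE 0.13). In these 3 genes each treated value was below every DMSO value. NOP16 shares its locus with ARL10 and HIGD2A on the other strand, and its change was -1.18 from unstranded counts but -0.45 (edgeR adjusted p 0.0272) when the counts of each strand were summed. The unstranded count sets aside reads that fall in more than 1 gene, while the sum of the strands can include them for NOP16. At 24 h, 27 of the 30 were lower and 1 was higher, with a median of -1.33, where 29.4% of all genes tested were lower and 28.7% higher. For 19 of the 22 the fall at 24 h was larger by the test of the difference itself. Of all 1435 genes lower at 4 h this held for 538.

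Of the genes of the ATF4 and unfolded protein responses, 7 of 24 fell and 1 rose, with a median of -0.26, against 9.3% and 6.89% of all genes. With DESeq2, with no filter, in the 24-sample fit and without DMSO replicate 6 of either time or IDE196 replicate 2 of 4 h, 2 rose. TRIB3, a pseudokinase induced by ATF4, fell from 31.2, 34 and 33.3 CPM to 11.2, 11.7 and 12.3 (-1.49, SE 0.10, edgeR adjusted p 3.14e-08). CHAC1, which degrades glutathione, fell (-1.26, SE 0.30). XBP1, the factor of the unfolded protein response, fell (-0.95) and was named after its value was seen. The rise was in DDIT4, an inhibitor of mTORC1, from 1.67, 1.44 and 1.38 CPM to 5.89, 3.97 and 6.44 (1.86, SE 0.27, edgeR adjusted p 0.000125). DDIT4 is induced by many stresses besides ATF4.

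In the BCL2 family, which sets the threshold for apoptosis, 4 of 15 rose and 2 fell, with a median of -0.07, against 6.89% and 9.3% of all genes. The clearest rises were in 3 of the BH3-only genes that promote death. BBC3, which encodes PUMA, rose from 18.9, 16.2 and 26.4 CPM to 54.3, 40.4 and 73.4 (1.45, SE 0.25, edgeR adjusted p 0.000456). BMF rose from 58.3, 63 and 62.5 CPM to 129, 129 and 137 (1.1, SE 0.13) and HRK from 26.2, 22.2 and 19.1 to 55.6, 41.6 and 35.7 (0.98, SE 0.14). BCL2L11, which encodes BIM and belongs to the same class, fell from 11, 12 and 14.8 CPM to 5.07, 5.57 and 6.92 (-1.11, SE 0.17, edgeR adjusted p 0.000162). The BH3-only genes therefore did not change as a block. The protective BCL2L1 had 0.40 and BCL2L2 -0.38, and both calls were lost in the 48-sample fit. The call of BCL2L1 was also lost in the 6-sample fit and without any 1 of the 4 h libraries but DMSO replicate 5, and that of BCL2L2 without IDE196 replicate 2 or 3.

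Of 22 melanocyte identity genes tested, 3 rose and 2 fell, with a median of 0.05, where 6.89% of all genes tested rose and 9.3% fell. None fell in the 48-sample fit, and 1 fell in the 6-sample fit and without any 1 of DMSO replicates 4 or 6 or IDE196 replicates 1, 2 or 3 of 4 h or IDE196 replicate 2 of 24 h. MITF, the master regulator of the lineage, had 498, 477 and 474 CPM with DMSO and 337, 346 and 299.8 with IDE196 (-0.56, SE 0.09, edgeR adjusted p 0.000209), groups that do not overlap. The call was lost in the 48-sample fit, and at 24 h the value was 0.10 (edgeR adjusted p 0.356). SOX10 had 527, 574 and 556 CPM against 616, 616 and 626 (0.16, edgeR adjusted p 0.182). EDNRB, the endothelin receptor that couples to Gq in melanocytes, rose from 209, 183 and 202 CPM to 333, 283 and 313 (0.65, SE 0.14), and the factor TFAP2A rose by 0.58 (SE 0.09). The pigment enzymes TYR (-0.29), TYRP1 (0.06) and DCT (0.28) did not pass the test. Since these are bulk samples, fewer cells of a type and less RNA per cell cannot be told apart.

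Of 24 receptor tyrosine kinases and adaptors, 6 rose and 3 fell, with a median of 0.07, where 6.89% of all genes tested rose and 9.3% fell, and in the 48-sample fit 1 rose and none fell. The 1 was FGFR2, a receptor of fibroblast growth factors, which rose from 1.15, 1.68 and 1.51 CPM to 4.7, 3.47 and 4.85 (1.58, SE 0.21, edgeR adjusted p 3.94e-05). NTRK2, the receptor of brain-derived neurotrophic factor, rose from 26.9, 19.4 and 29.2 CPM to 42.9, 45.7 and 51.9 (0.90, SE 0.14), and SOS1, an activator of RAS, fell from 192, 179 and 179 to 118, 119 and 102 (-0.70, SE 0.09). The calls of these 2 genes were lost in that fit. The number of the list that fell was 1 in the 6-sample fit and without DMSO replicate 4 or 5 or IDE196 replicate 2 or 3 of 4 h. Of the genes of TGF-beta and BMP signalling, 7 of 21 rose and 4 fell, with a median of -0.10, against the same shares of all genes, and in the 48-sample fit 4 rose. SMAD9, an effector of BMP receptors, rose from 34, 30.1 and 33.3 CPM to 77.9, 76 and 62.2 (1.15, SE 0.12, edgeR adjusted p 3.35e-06). ID2, an inhibitor of basic helix-loop-helix factors that BMPs induce, rose from 34.8, 61.5 and 43.4 CPM to 86, 94 and 94.6 (0.97), and SMAD6, an inhibitor of BMP signalling, rose by 0.74. BMP2 itself fell from 5.24, 8.15 and 10.04 CPM to 3.07, 3.21 and 4.42 (-1.14, SE 0.27). The number that fell in this list was 1 without IDE196 replicate 1 and 2 without DMSO replicate 4 or without IDE196 replicate 2 of 4 h.

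Of 20 WNT pathway genes, 5 fell and 3 rose, with a median of 0.03, where 9.3% of all genes tested fell and 6.89% rose. FZD7, a WNT receptor, fell from 107, 90.1 and 109 CPM to 41.2, 31.9 and 37.5 (-1.47, SE 0.11, edgeR adjusted p 8.32e-08). ZNRF3, which removes such receptors, fell (-0.80), and CTNNB1, which encodes beta-catenin, fell from 1623, 1358 and 1458 CPM to 919, 1012 and 933 (-0.63, SE 0.10). AXIN2, a feedback target of beta-catenin, rose from 1.01, 1.92 and 1.16 CPM to 3.31, 3.26 and 4.15 (1.38, SE 0.26), at a low level. The numbers were 3 that fell and 1 that rose in the 48-sample fit and without IDE196 replicate 2 of 4 h, and 3 that fell in the 6-sample fit and without DMSO replicate 5 of 4 h. Of 27 targets of YAP with TEAD and of serum response factor with actin, 5 rose and none fell, with a median of 0.09, against 6.89% and 9.3% of all genes, but 3 rose and 1 fell in the 48-sample fit, 1 fell with no filter and in the 24-sample fit, and 3 rose without IDE196 replicate 1 of 4 h. The 2 classical YAP targets rose: CTGF from 4.1, 4.47 and 3.47 CPM to 12.7, 9.04 and 10.9 (1.44, SE 0.18, edgeR adjusted p 2.78e-05) and CYR61 from 21.2, 31.9 and 21.5 to 55.8, 56 and 59.6 (1.2, SE 0.13). YAP1 and TAZ (WWTR1) did not pass the test, with -0.02 and -0.92.

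NF-kappaB targets are another output that protein kinase C can reach. Of 18 tested, 1 rose and 1 fell, with a median of -0.21, shares below the 6.89% and 9.3% of all genes, and 9 of the 27 listed, most of them chemokines and cytokines, were too low to test. NFKBIA, the inhibitor that NF-kappaB induces, rose from 7.97, 14.9 and 13 CPM to 20.9, 19.8 and 23.7 (0.84, SE 0.16, edgeR adjusted p 0.00156). ICAM1, an adhesion molecule, fell from 26.9, 26.8 and 25 CPM to 14.6, 15.8 and 17.5 (-0.71, SE 0.12). The number that fell ranged from 1 to 3 over the fits that left out a library, with 3 without DMSO replicate 4 and without IDE196 replicate 1 of 4 h. With DESeq2 2 rose and 2 fell, and 2 also fell with limma-voom, with no filter and in the 48-sample fit.

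**Figure D3:**
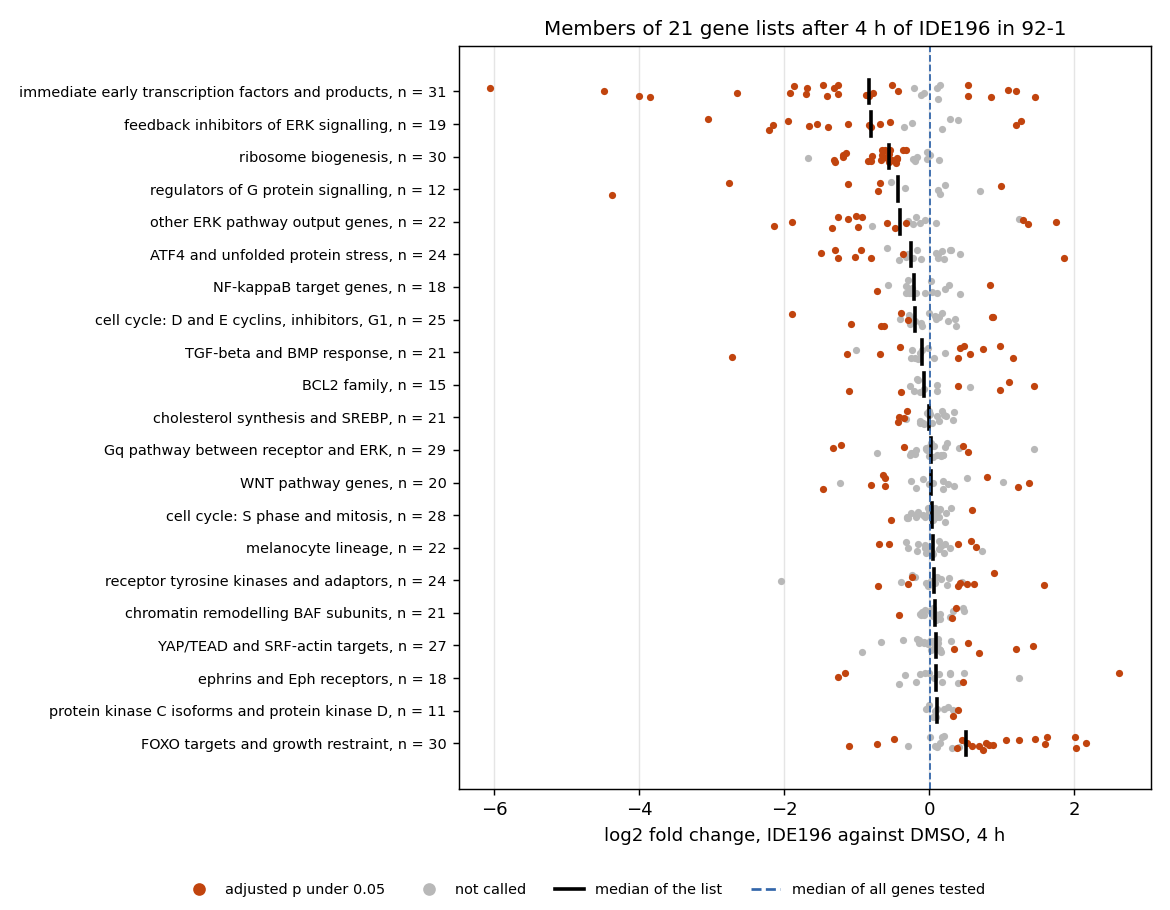
Log2 fold change after 4 h of IDE196 for each member of 21 gene lists that was tested. Each dot is 1 gene, orange where the adjusted p was under 0.05 and grey otherwise, the black bar is the median of the list, and the dashed line is the median of all 15437 genes tested. Medians ran from -0.83 for immediate-early genes to 0.51 for FOXO targets.

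The comparison of 24 h with 4 h asks which early changes last. The 4 h and 24 h effects come from separate IDE196 and DMSO samples. Of the 1063 genes higher at 4 h, 877 (82.5%) were also higher at 24 h, 23 (2.16%) were lower and 163 (15.3%) were not called. Of the 1435 genes lower at 4 h, 1229 (85.6%) were also lower at 24 h, 32 (2.23%) were higher and 174 (12.1%) were not called. Calls were more frequent at 24 h, at 28.7% higher and 29.4% lower (58.1% in all), and the genes called at both times made up 19.8% of the 24 h rises and 27.1% of the 24 h falls. The difference between the times was itself called for 4733 genes (30.7%). Among genes called at 4 h it lay further from 0 at 24 h for 354 of those higher and 538 of those lower, and in the other direction for 86 and 109.

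Several of the deepest falls went deeper. RGS16 reached 16, 19.4 and 24.2 CPM with DMSO and 0.127, 0.239 and 0.162 with IDE196 at 24 h (-6.78, difference from 4 h -2.41, edgeR adjusted p 0.00094). Those IDE196 values, in libraries of 17838297 to 22981913 reads in genes, rest on few reads, so the size of the change is limited by depth. For SPRY4 the 24 h values were 103, 121 and 113 and 1.95, 2.53 and 2.11 CPM (-5.68, difference -2.63, edgeR adjusted p 1.97e-08). EGR1, by contrast, had -4.07 at 24 h against -4.0 at 4 h (difference -0.07, SE 0.52, edgeR adjusted p 0.938). ETV4, not called at 4 h, had -3.76 at 24 h (edgeR adjusted p of the difference 5.73e-11). Among the rises, EFNA1 went on to 3.91 and PIK3IP1 to 3.8 (edgeR adjusted p of the differences 0.00189 and 0.000179).

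Early-only changes were counted among protein-coding genes that averaged 5 CPM or more over the 12 samples. There 16 genes changed at least 2-fold at 4 h, moved back by the test of the difference and were not called at 24 h. Of these 10 were falls. The largest of the 16 were FOS, PPARGC1A, SH3TC1 and FRMD6. FOS had 10.6, 11.4 and 10.7 CPM with DMSO at 24 h and 9.27, 13.3 and 9.62 with IDE196 (-0.02, edgeR adjusted p 0.917; difference from 4 h 1.9, edgeR adjusted p 3.18e-05). The 2 groups of FOS overlapped at 24 h after being apart at 4 h. PPARGC1A had 4.0, 4.44 and 5.7 and 4.61, 5.01 and 5.78 CPM at 24 h (0.12, difference -1.66, edgeR adjusted p 0.000844). FRMD6, a FERM domain protein linked to the Hippo pathway, went from -1.52 to 0.19 (edgeR adjusted p of the difference 2.96e-06) and SH3TC1 from -1.55 to -0.19 (0.000744).

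Some genes crossed over. They were counted among protein-coding genes that averaged 5 CPM or more over the 12 samples and had groups apart at both times. With calls at both times and a called difference, 22 were higher at 4 h and lower at 24 h, and 27 the reverse. PKIA, an inhibitor of protein kinase A, had 40.4, 38 and 42.2 CPM with DMSO and 65, 58.4 and 53.2 with IDE196 at 4 h, and 42.3, 43.3 and 39.8 and 17.5, 18.9 and 17.8 at 24 h. This gave 0.55 at 4 h and -1.21 at 24 h, with an edgeR adjusted p of 6.46e-08 for the change between the times. The glucose transporter SLC2A4 went from 0.79 to -0.98 and RMI2, of the BLM dissolvasome, from 0.57 to -0.85. In the other direction, NRP2, a coreceptor of semaphorins and VEGF, had 96.2, 87.2 and 79.9 against 52.9, 57.1 and 49.5 CPM at 4 h and 125, 92 and 82.3 against 237, 205 and 216 at 24 h (-0.72 and 1.14, edgeR adjusted p of the difference 8.88e-07). GDF7 went from -0.75 to 0.83, HIVEP1 from -0.70 to 0.76, and IRS1 from -0.71 to 0.67. The 4 h calls of PKIA, RMI2, GDF7, HIVEP1 and IRS1 were lost in the 48-sample fit, and that of HIVEP1 also in the 6-sample fit, with limma-voom, without DMSO replicate 4 and without IDE196 replicates 2 or 3 of 4 h.

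**Figure D4:**
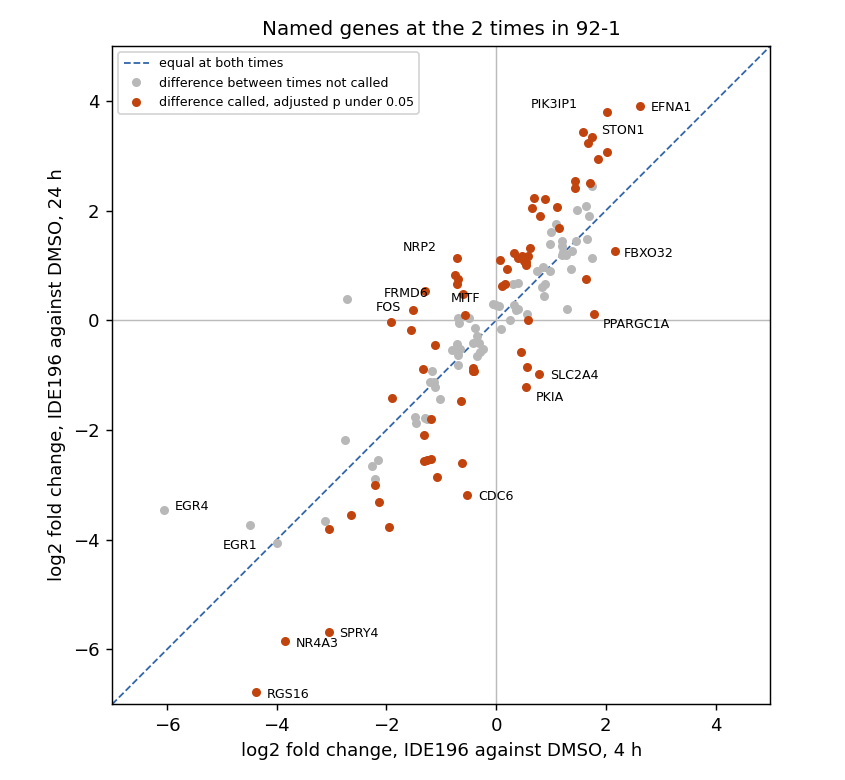
Log2 fold change with IDE196 at 24 h (vertical) against 4 h (horizontal) for the named genes, each dot 1 gene. Orange dots have a called difference between the times, grey dots do not, and the dashed line marks equal changes. RGS16, NR4A3 and SPRY4 lie below the line, FOS and PPARGC1A lie near 0 at 24 h, and NRP2 and PKIA lie on opposite sides of 0 at the 2 times.

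FHT-1015 in the same line at the same time gives a contrast with a compound that acts on chromatin. It was compared through its own 3 DMSO samples in a fit of the 24 samples of 92-1, with 16917 genes tested. There FHT-1015 raised 1908 genes (11.3%) and lowered 2751 (16.3%), and its effect differed from that of IDE196 for 4169 genes (24.6%). Between the DMSO samples of IDE196 and those of FHT-1015, 7797 genes (46.1%) were called, so only effects against each compound's own DMSO are compared, and what separates these sets was not tested. Of 1161 genes that IDE196 raised in this fit, FHT-1015 raised 165 and lowered 355. Of 1527 that IDE196 lowered, FHT-1015 lowered 352 and raised 334.

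Immediate-early genes differed between the compounds. Of 32 tested in the 24-sample fit, IDE196 lowered 18 and raised 5 (median -0.85), and FHT-1015 lowered 6 and raised 12 (median 0.30), where FHT-1015 lowered 16.3% and raised 11.3% of all genes, so the share it lowered was near that of all genes. For 11 genes IDE196 lowered and FHT-1015 raised the level with a called difference between the effects, and for 2 the reverse held. Over all genes tested these patterns were called for 334 (1.97%) and 355 (2.1%). EGR1 had 10.3, 9.43 and 15.2 CPM in the DMSO samples of FHT-1015 and 59.3, 62.4 and 77.1 with FHT-1015, a log2 fold change of 2.51 against -4.0 with IDE196 (edgeR adjusted p of the difference 2.99e-12). NR4A3 had 215, 232 and 233 CPM in those DMSO samples and 900.5, 821 and 680.4 with FHT-1015 (1.82 against -3.85), and edgeR gave an adjusted p of 2.64e-17 for the difference. The DMSO sets of these 2 genes differed by -0.32 and -0.19 on the log2 scale, not called. SPRY2 rose with FHT-1015 from 51.3, 49.4 and 49.5 CPM to 149.6, 145 and 154 (1.58 against -1.95), with DMSO sets that differed by 0.31 (edgeR adjusted p 0.0329), while SPRY4 had -0.10 with FHT-1015 (edgeR adjusted p 0.663). DUSP4 and CCND1 fell with both compounds, with log2 fold changes of -1.55 and -1.89 for IDE196 and -1.7 and -1.39 for FHT-1015.

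Ribosome biogenesis genes also differed. IDE196 lowered 22 of 30 and raised none, and FHT-1015 raised 12 and lowered 1, with medians of -0.55 and 0.21 and a called difference for 25. Of all genes, FHT-1015 raised 11.3% and lowered 16.3%, and 24.6% had a called difference. In the other direction stood CTGF, FST and PRICKLE1, a planar cell polarity gene, which rose with IDE196 and fell with FHT-1015. CTGF had 4.54, 4.71 and 2.63 CPM in the DMSO samples of FHT-1015 and 0.846, 1.62 and 0.425 with it (-1.98 against 1.44), and PRICKLE1 6.16, 7.68 and 8.71 and 0.846, 1.24 and 1.33 (-2.74 against 1.44). FST had -2.1 against 1.65, but its level differed between the 2 DMSO sets by 1.54 (edgeR adjusted p 2.88e-09). SOX10 fell with FHT-1015 (-4.94) and had 0.17 with IDE196 (edgeR adjusted p of the difference 1.24e-17). FOXO targets had 16 rises and 3 falls with IDE196 and 5 rises and 12 falls with FHT-1015 among 30 tested, beside the same 11.3% and 16.3% of all genes with FHT-1015.

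**Figure D5:**
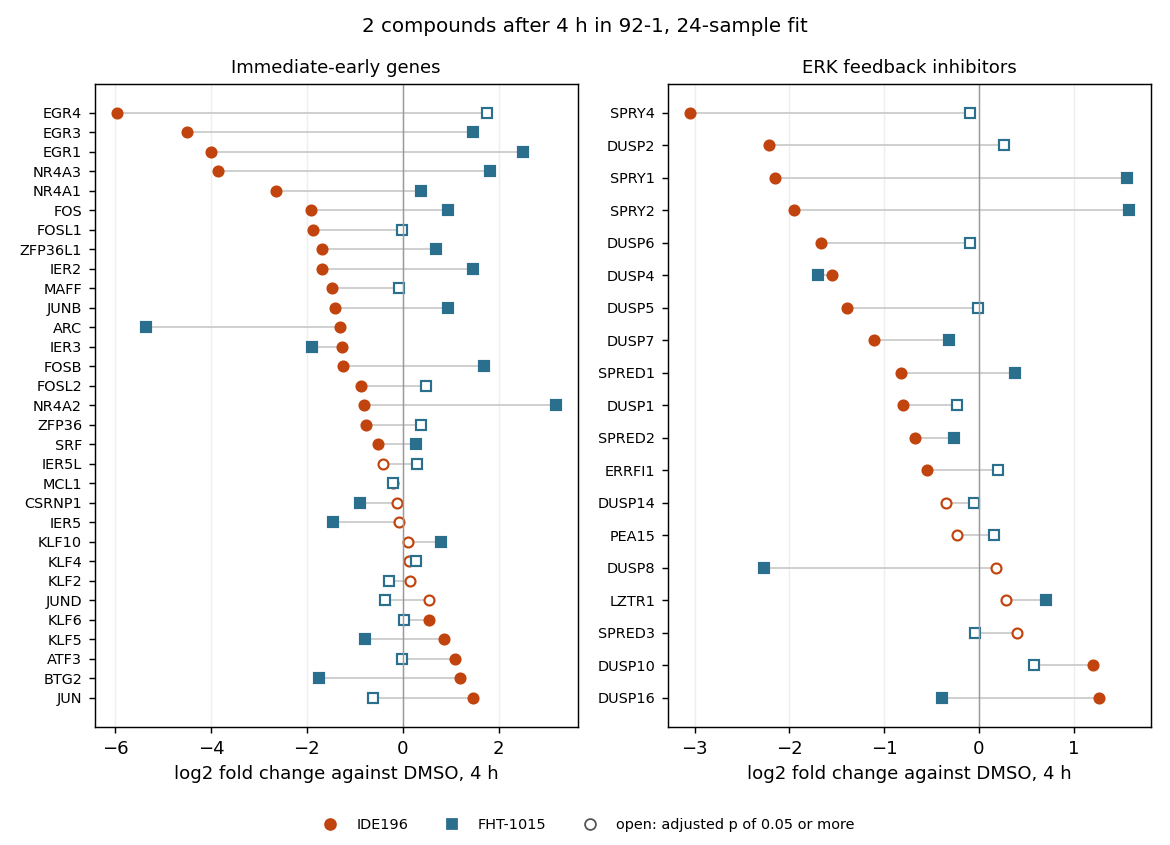
Log2 fold change at 4 h in 92-1 for the 31 immediate-early genes and 19 ERK feedback inhibitors of the 12-sample fit, with IDE196 (orange circles) and FHT-1015 (blue squares), each against its own DMSO in the 24-sample fit. Filled symbols have an adjusted p under 0.05 and the grey line joins the values of a gene. For EGR1, NR4A3, FOS, SPRY1 and SPRY2 the symbols lie on opposite sides of 0, and for DUSP4 and IER3 on the same side.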

How the data were processed

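Total RNA of 92-1 cells was made into poly-A libraries with an NEBNext Ultra kit, which does not mark strand, per the labels' protocols. The authors deposited raw counts of reads per gene for each library, in the layout of STAR gene counts. The submitters' processing notes name the build hg38 and limma, and the aligner and annotation release are not given in the sources used here. The unstranded count was used, so sense and antisense reads cannot be told apart. Reads that fall in more than 1 gene are set apart in it as ambiguous and given to no gene. Summary lines that name no gene were left out. Gene coordinates are from GENCODE release 29 (GRCh38).

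Counts were tested with edgeR 4.0.16 (R 4.3.3) by glmQLFit and glmQLFTest after filterByExpr and TMM scaling, in a fit of 12 samples for IDE196 and of the 24 samples of 92-1 for FHT-1015. Calls have a Benjamini-Hochberg adjusted p under 0.05 over all genes tested. The script was tested on simulated counts. The set of samples to describe, though read from the labels, and the gene lists were chosen with earlier results of these data known. The rule for named genes took protein-coding genes: the 12 largest called rises and falls that averaged 5 CPM or more with no overlap, up to 4 called members per list and direction, the protein kinase C genes, MITF and SOX10, up to 3 genes per direction with opposite calls at the 2 times or with the 2 compounds, and up to 4 early-only genes. Those that the text does not describe are in its counts, and 1 of the 12 largest rises is not reported here. Alternatives were relative log expression scaling, library size alone, no filter, DESeq2 1.42.0, limma-voom 3.58.1 with quality weights, the sum of the stranded counts, fits of 6, 24 or 48 samples, a replicate block and leaving out each library.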

Additional observations from a re-analysis of the deposited data

Results flagged for a closer look

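The effect of IDE196 differed between 24 h and 4 h for 4733 genes by the test of the difference itself, with 3 samples in each of the 4 groups. Differences below are those of the log2 fold changes, 24 h minus 4 h. That of RGS16 rests on few IDE196 reads at 24 h. Among the deepest early falls, the effect was more negative at 24 h by -2.41 for RGS16, -2.0 for NR4A3, -0.76 for OLIG2, -2.63 for SPRY4, -0.90 for NR4A1, -0.80 for HUNK and -1.17 for PHLDA2. Among the largest early rises, it was more positive for EFNA1 (1.29), YPEL2 (1.05), STON1 (1.59), STARD13 (0.79) and ARFGEF3 (1.56). It moved back toward 0 for FBXO32 (-0.91), PPARGC1A (-1.66) and FST (-0.89). Genes that rose and later fell differed by -1.76 for SLC2A4, -1.42 for RMI2 and -1.76 for PKIA, and genes that fell and later rose by 1.58 for GDF7, 1.86 for NRP2 and 1.46 for HIVEP1. The early falls of FOS (1.9), SH3TC1 (1.36) and FRMD6 (1.72) were not called at 24 h. Of the other named genes with a called difference, 48 lay further from 0 at 24 h and 9 moved toward or past 0.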

How the results depend on the processing

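The number of genes higher at 4 h lay between 802 and 1206 and the number lower between 1168 and 1644 over the alternatives other than the fit of all 48 samples, which gave 348 and 547 with the spread of 16 groups pooled. Leaving out each library gave 745 to 1075 higher and 1158 to 1487 lower. The difference between the times was called for 4595 to 5267 genes over the alternatives and for 4090 to 4642 without 1 library, and the difference between the compounds for 3707 to 5335 and 3602 to 4352. The genes named for the 4 h effect stayed on the same side of the threshold in 1351 combinations of gene and alternative, lost the call in 90 and gained it in 2, and for the fits that each left out a library these numbers were 1771, 159 and 2. No named gene that was called turned direction. Of the genes that were followed over the alternatives and not called, PRKCE turned sign with limma-voom and without DMSO replicate 4 or IDE196 replicates 2 or 3 of 4 h. PRKCD, PRKCI, PRKD1 and GNAQ turned without 1 or 2 of the 4 h libraries, each left out alone. IDE196 and DMSO samples share no replicate numbers, so the labels give no pairing, and no paired fit of the 4 h effect was run. In replicate order, mitochondrial shares rose in both 4 h groups, 3.92%, 4.92% and 6.31% with DMSO and 4.89%, 5.32% and 6.74% with IDE196. Whether samples of the same order belong together was not tested. With the replicate block, 4392 genes differed between the times. Same-numbered samples of the 2 times had deviations from their group means that correlated at -0.046 to 0.095. DMSO replicates 4 and 6 of 4 h correlated best with their own number, and the other samples did not. Whether same-numbered samples share a culture or day was not tested. Genes of a few reads, such as EGR4 at 4 h and RGS16 with IDE196 at 24 h, are limited by depth.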

Other observations

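Of 21 cholesterol synthesis genes, which SREBP factors drive, 4 fell and none rose, with a median of -0.01, where 9.3% of all genes tested fell. In the 24-sample fit 2 fell and in the 48-sample fit 1 did, and with no filter 1 rose. SQLE, the epoxidase of the pathway, fell from 658, 659 and 693 CPM to 475, 491 and 526 (-0.43, SE 0.08, edgeR adjusted p 0.00133). At 24 h, 9 fell and 1 rose, where 29.4% of all genes tested fell and 28.7% rose. Of 21 subunits of BAF complexes, the target of the other compound of the series, 2 rose and 1 fell at 4 h, with a median of 0.08, where 16.2% of all genes tested were called, and none was called in the 48-sample fit. The number that rose was 0 without DMSO replicate 5 or IDE196 replicates 1 or 3 of 4 h, and 4 without IDE196 replicate 3 of 24 h. It was 1 without DMSO replicate 6 or IDE196 replicate 2 of 4 h, or without DMSO replicates 5 or 6 or IDE196 replicate 2 of 24 h. PHF10, of the PBAF form, had 59.4, 60.5 and 52.3 CPM against 46.5, 42.4 and 39.9 (-0.42, SE 0.09, edgeR adjusted p 0.00308), and the ATPase SMARCA4 had 0.11 (edgeR adjusted p 0.465).

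Of the genes called lower, 97.8% were annotated as protein coding, of those called higher 91.8%, and of all genes tested 82.1%. The median exonic length of the coding genes was 5246 bases for those lower, 6234.5 for those higher and 5225 for all tested, and their median genomic span was 29747, 45993 and 34080.5 bases.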
